A study of Drosophila melanogaster with 8 samples.

Results

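The transcripts of the mitochondrial ribosomal proteins were examined in the heads of Canton-S females of Drosophila melanogaster, a common laboratory wild type. The genes were those whose symbol in the platform annotation begins with mRpL or mRpS and a digit. They numbered 69 of 11982 genes with an unshared probe set, of which 44 were named for the large and 25 for the small subunit of the ribosome. Each gene was taken by its probe set of the highest mean. The flies were kept at 12.5 °C for 12 days from within 8 h of emergence, either in long days of 16 h light and 8 h dark or in short days of 10 h light and 14 h dark, and heads were taken 4 h after lights-on. For each photoperiod 4 samples were hybridised, each to its own Drosophila Genome 2.0 array. The flies carried no transgene, and no source used here gives the number of heads per sample. Nothing in the labels says that the samples of a photoperiod came from separate vials, and the p-values therefore reflect only sample-to-sample spread, part of which may be technical. The study's methods give a shorter short day, a wider window of head collection and a narrower window of emergence than the labels. Their section on gene expression also gives a slightly lower temperature. The values of the labels are used here.

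The mitochondrial ribosome makes the few proteins encoded by mitochondrial DNA, which are core subunits of the respiratory chain and the ATP synthase. All of its proteins are encoded in the nucleus, translated in the cytosol and imported. Some descend from proteins of the bacterial ribosome and keep their numbers (up to mRpL36 and mRpS21, with mRpL47 and mRpS24 added here). The others are called mitochondrion-specific here. This is a division by number, which does not exclude a bacterial origin of single members. The large subunit forms the peptide bond and holds the exit tunnel, and the small subunit reads the codon. Loss of single subunits in flies slows growth or is lethal, and the small subunit gene tko (technical knockout) is named for the paralysis of its mutants after a mechanical shock.

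All members were well measured. Their means over the arrays lay between 7.01 (mRpL50) and 11.75 (mRpS5) on the log2 scale, where the lowest value an array could take was 2.15. Levels of different probe sets are not comparable, because probes differ in affinity, so only the differences of each gene between samples are described. The RefSeq table of Drosophila Release 6 lists 73 protein-coding genes with such names, and all 69 members matched it by gene number and symbol. Of the remaining 4, mRpL53 and mRpS10 shared a probe set with another gene, and mRpL34 and mRpL37 were not analysed here. The subunit is taken from the name, although the human counterparts of mRpS18A and mRpS30 sit in the large subunit.

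The 8 arrays were alike in overall level, with medians of 8.44 to 8.52 over the 9107 probe sets whose mean was at least 4, and pairs of arrays correlated across these with r of 0.983 to 0.996. The head origin was borne out by its markers. The 8 measured neuronal markers had means of 6.01 to 12.95 and the 8 photoreceptor markers of 11.05 to 15.04, while 12 ovary and eggshell genes were at most 3.12 on any array. Some arrays stood apart from the others in marker content. Short day replicate 3 carried all 5 measured transcripts of thoracic flight and jump muscle at their highest, with fln (flightin) at 11.71 there against at most 2.69 elsewhere. Long day replicate 2 had the lowest neuronal markers, at a mean deviation of -0.39 from the average of all arrays. Short day replicate 2 had the highest neuronal and photoreceptor means (0.23 and 0.20), the lowest glial and fat body means (-0.22 and -0.56) and the highest array median (8.52).

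No mitochondrial ribosomal protein gene passed, between photoperiods, the threshold used in the study, an unadjusted p under 0.01. Of the 44 large subunit genes none was called in limma, and none of the 25 small subunit genes, against 3.48% of all genes (417 of 11982, with 1.79% higher and 1.69% lower in short days) and 5.65% of the 7348 genes of mean 4 or more. At an unadjusted p under 0.05 there was 1 gene, mRpL42, where 17.8% of the genes of mean 4 or more passed. That count rested on single arrays, with 7 of the 69 members without long day replicate 2 (beside 14.6% of the genes of mean 4 or more), 6 without short day replicate 4 (15.5%), 1 without long day replicate 3 (13.8%) and none when any other single array was left out. A test without moderated variances also called none, against 2.92% of all genes. The 4 short day and the 4 long day values overlapped in every member, where they were fully separated in 7.34% of all genes and 11.7% of those of mean 4 or more. Without long day replicate 2, 3 large and 2 small subunit genes were separated (6.82% and 8.0%, beside 15.7% of the genes of mean 4 or more), and without short day replicate 4, 6 and 3 were (13.6% and 12.0%, beside 16.4%), all higher in short days. Without short day replicate 1, 1 large subunit gene was separated (mRpL45, above), beside 14.6% of the genes of mean 4 or more. Without short day replicate 3 it was mRpL50, below, beside 20.3%. Leaving out any other single array separated no member. The shares of the genes of mean 4 or more were 15.6%, 14.6% and 20.0% without long day replicates 1, 3 and 4. Without short day replicate 2 the share was 14.0%. After Benjamini-Hochberg adjustment over all 18769 probe sets the smallest adjusted p of a member was 0.449. In these whole-head samples fewer cells of a type and less RNA per cell cannot be told apart.

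**Figure D1:**
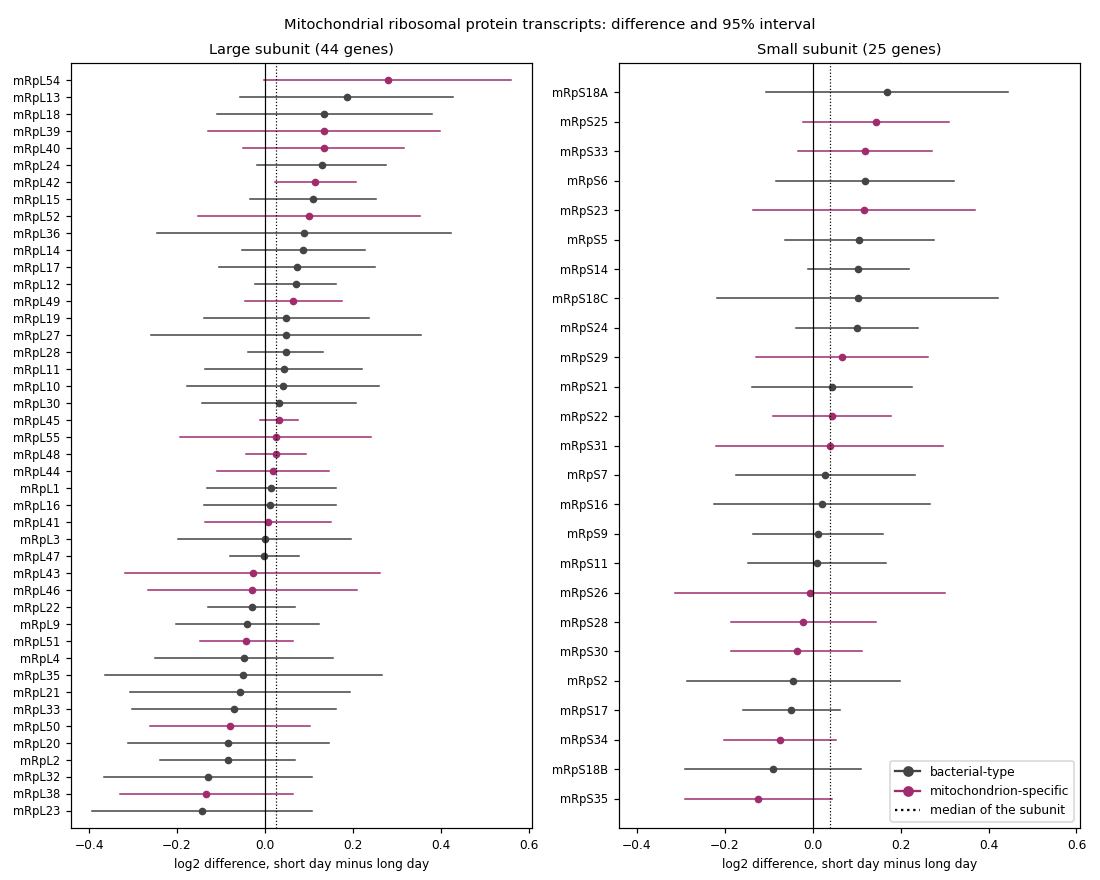
Log2 difference (short day minus long day, 4 arrays each) of each mitochondrial ribosomal protein gene, with its 95% interval from limma, for the large (left) and small (right) subunit, coloured by bacterial-type or mitochondrion-specific number. The points lie between -0.14 and 0.28, and the interval of 1 gene, mRpL42, leaves out 0.

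The differences of the members lay close to 0, and their intervals were about as wide as those of other genes, reaching 0.18 (large subunit) and 0.17 (small subunit) to either side at the median, beside 0.21 over the genes of mean 4 or more. The 95% interval of the difference lay within 0.4 on the log2 scale, that is between a ratio of 0.758 and 1.32, for 41 large subunit and 23 small subunit genes, or 93.2% and 92.0%, where 66.6% of the genes of mean 4 or more had such an interval. The exceptions were mRpL54, mRpL13, mRpL36, mRpS18A and mRpS18C, whose upper bounds reached 0.56, 0.43, 0.42, 0.44 and 0.42. The tightest estimate was that of mRpL45, whose mammalian counterpart lies at the exit of the peptide tunnel and faces the inner membrane, with a difference of 0.032 and an interval of -0.012 to 0.075. Its deposited value was 9.25, identical, in long day replicates 2, 3 and 4, which lowers its measured spread. A change of 1.47-fold upwards (mRpL54) or to 0.761 downwards (mRpL23) was the largest that the interval of any member allowed. Each interval is for a single gene, without adjustment for the number of members, so these are not bounds on all members together.

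In the large subunit the median log2 difference was 0.025, beside 0.023 over the genes of mean 4 or more. Of the 44 genes 27 had a higher and 17 a lower mean in short days, or 61.4% higher, beside 56.2%. The median size of the difference, whichever its sign, was 0.053, beside 0.101. The spread between arrays of one photoperiod was similar to that of other genes, with a median within-group SD of 0.11, beside 0.12.

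The gene with the largest positive difference was mRpL54, a protein of the mitochondrion-specific set. Its long day values were 8.46, 8.70, 8.36 and 8.50 and its short day values 8.73, 8.70, 9.07 and 8.63 in replicates 1 to 4. The short day value of replicate 3, the array with flight muscle transcripts, stood highest, and the groups overlapped between long day replicate 2 and short day replicate 4. The difference was 0.28 ± 0.12 (SE, limma, adjusted p = 0.568). Next came mRpL13, whose bacterial homologue joins the large subunit early in assembly, at 9.26, 9.48, 9.09 and 9.21 in long days and 9.39, 9.56, 9.54 and 9.30 in short days. Again long day replicate 2 reached into the short day range, and the difference of 0.19 ± 0.10 gave an adjusted p = 0.720. For mRpL18, the homologue of a bacterial protein of the central protuberance, the values were 8.35, 8.45, 8.26 and 8.26 in long days and 8.43, 8.48, 8.71 and 8.25 in short days. Short day replicate 3 was the highest and replicate 4 the lowest of all 8, and the difference was 0.14 ± 0.10.

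At the other end was mRpL23, whose bacterial homologue sits at the exit of the peptide tunnel. Its values were 8.76, 9.12, 8.79 and 8.89 in long days and 8.76, 8.78, 8.89 and 8.55 in short days. Long day replicate 2 was highest and short day replicate 4 lowest, and the 6 arrays between them were interleaved (difference -0.14 ± 0.10, adjusted p = 0.830). The mitochondrion-specific mRpL38, part of the central protuberance in mammals, was at 8.36, 8.71, 8.47 and 8.47 in long days and 8.30, 8.37, 8.32 and 8.48 in short days. Here too long day replicate 2 was the highest value, and the difference was -0.13 ± 0.08. The zinc-binding mRpL32, whose mouse and yeast counterparts are trimmed by a protease of the inner membrane before they join the ribosome, was at 8.09, 8.37, 8.05 and 8.03 in long days and 8.06, 7.92, 8.15 and 7.89 in short days. Its difference was -0.13 ± 0.10, with 2 of the 4 short day values inside the long day range.

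The gene closest to the threshold was mRpL42, a mitochondrion-specific protein. It was measured at 8.26, 8.31, 8.31 and 8.22 in long days and 8.45, 8.41, 8.41 and 8.29 in short days. The values of a photoperiod lay close together, and short day replicate 4 was the only short day value within the long day range. The difference was 0.11 ± 0.04, a ratio of 1.08 (limma, adjusted p = 0.449). Without short day replicate 4 it was 0.15 and passed the threshold (adjusted p = 0.295).

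In the small subunit the median log2 difference was 0.038, with 17 of 25 genes higher and 8 lower in short days and a median size of 0.066. After a second quantile normalization or median centring of the arrays 14 and 15 of the 25 were higher. Here the largest positive difference was that of mRpS18A, which belongs with mRpS18B and mRpS18C to a trio of genes related to the single bacterial S18. Its values were 8.61, 8.83, 8.48 and 8.48 in long days and 8.67, 8.90, 8.92 and 8.60 in short days, a difference of 0.17 ± 0.11 (adjusted p = 0.830) with overlapping groups. The other members of the trio were at 0.10 ± 0.13 (mRpS18C) and -0.09 ± 0.08 (mRpS18B). The probe set of mRpS18B is of the kind whose probes can match more than 1 transcript. No difference among the 3 was tested.

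The mitochondrion-specific mRpS25 was at 8.63, 8.75, 8.75 and 8.79 in long days and 8.86, 8.94, 8.98 and 8.70 in short days. As in mRpL42, short day replicate 4 alone fell among the long day values. The difference was 0.14 ± 0.07 (limma, adjusted p = 0.647), and without that array it was 0.20 and passed the threshold (adjusted p = 0.422). Another mitochondrion-specific gene, mRpS33, had 9.64, 9.68, 9.52 and 9.58 in long days and 9.72, 9.76, 9.84 and 9.58 in short days, a difference of 0.12 ± 0.06, and again only short day replicate 4 overlapped.

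Among the negative differences mRpS35 stood lowest, with 8.64, 8.66, 8.49 and 8.44 in long days and 8.41, 8.55, 8.33 and 8.44 in short days. The groups overlapped and the difference was -0.12 ± 0.07 (adjusted p = 0.742). The next was mRpS18B, at 8.23, 8.54, 8.32 and 8.18 in long days and 8.28, 8.18, 8.27 and 8.17 in short days, where long day replicate 2 was the highest value. For mRpS34, whose counterpart in the mouse is needed for a stable small subunit, the values were 9.00, 9.12, 9.02 and 9.04 in long days and 9.03, 8.93, 9.06 and 8.86 in short days, a difference of -0.07 ± 0.05.

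**Figure D2:**
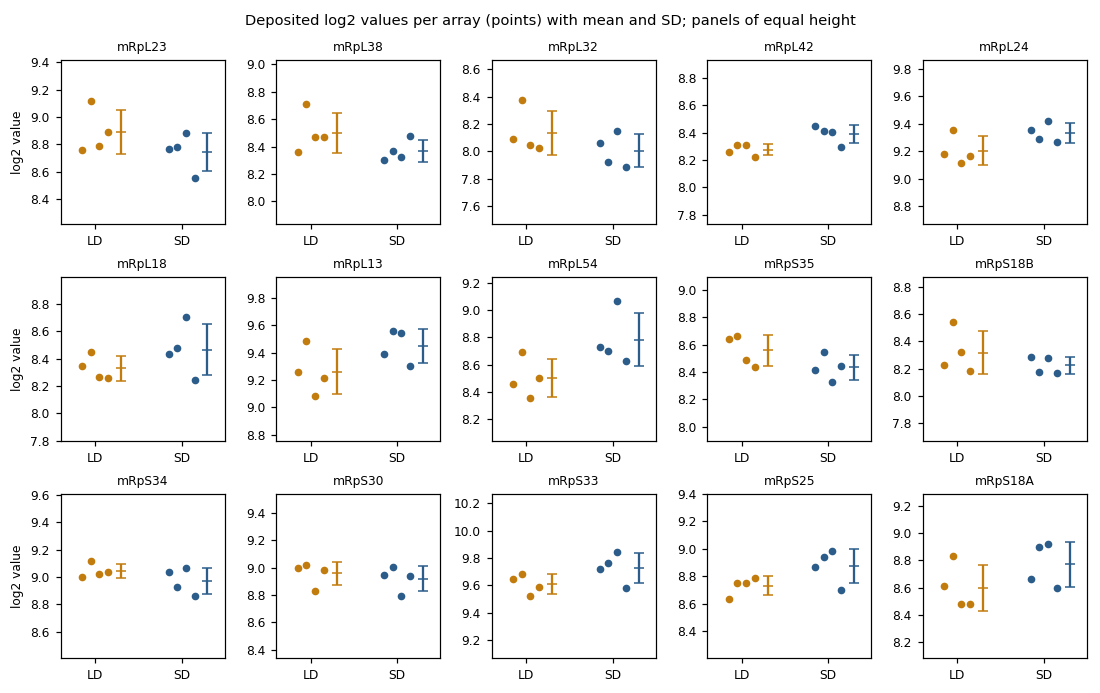
Deposited log2 values of the 13 genes named by rule and of mRpL24 and mRpS30, per array (points, replicates 1 to 4 from left to right) in long (LD) and short (SD) days, with the mean and SD of 4 arrays beside them. All panels span the same number of log2 units, and the 2 groups overlap in each.

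Neither the bacterial-type nor the mitochondrion-specific proteins, as divided by number, held a call. The median difference was 0.024 over the 28 bacterial-type and 0.025 over the 16 mitochondrion-specific genes of the large subunit, and 0.036 over 14 and 0.038 over 11 in the small subunit. For some roles the members are given one by one. The proteins of the stalk, which recruits the translation factors, were among the bacterial type, with mRpL12 at 0.07 ± 0.04, mRpL10 at 0.04 ± 0.09 and mRpL11, at the stalk base, at 0.04 ± 0.07. Those whose homologues line the exit tunnel were at -0.05 ± 0.08 (mRpL4) and -0.030 ± 0.041 (mRpL22). The interval of each of these 5 included 0.

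The members varied between arrays in a shared way that did not follow photoperiod. Expressed as the mean deviation of the large subunit genes from their average over the 8 arrays, the values were -0.041, 0.105, -0.066 and -0.046 in long day replicates 1 to 4 and -0.015, 0.049, 0.106 and -0.092 in short day replicates 1 to 4. The small subunit gave -0.057, 0.101, -0.066 and -0.049 in long days and 0.0045, 0.051, 0.087 and -0.071 in short days. In both subunits replicate 2 of the long days and replicate 3 of the short days stood high and short day replicate 4 low, so that the range within a photoperiod was several times the difference between photoperiods. For the large subunit that range was 0.171 in long days and 0.197 in short days, and the short day mean exceeded the long day mean by 0.024. For the small subunit the figures were 0.168, 0.158 and 0.036. Long day replicate 2 exceeded the mean of the other long day arrays by 1.11-fold in the large and 1.12-fold in the small subunit, where all genes of mean 4 or more averaged 1.01-fold.

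The shift was carried by most of the genes. Long day replicate 2 was the highest of the 4 long day arrays in 34 of 44 large subunit genes (77.3%) and 19 of 25 small subunit genes (76.0%), beside 37.3% of the genes of mean 4 or more. Short day replicate 3 was the highest of the short day arrays in 27 large subunit (61.4%) and 12 small subunit genes (48.0%), beside 26.9%, and short day replicate 4 the lowest in 32 (72.7%) and 16 (64.0%), beside 30.9%. These orders within a photoperiod were not particular to the ribosome. Among the 54 respiratory chain and ATP synthase genes of mean 4 or more, 53.7% and 46.3% had the same highest long day and short day array. In 77.8% the lowest short day array was the same. Over all 8 arrays the highest value lay in one of these 2 high arrays in 34 large subunit (77.3%) and 16 small subunit genes (64.0%), beside 35.0%. Some members departed from this in whole or in part, and these were chosen after their values were seen. For mRpS22 the highest values were 8.76 (short day replicate 4) and 8.75 (long day replicate 1), and long day replicate 2 was at 8.59. For mRpS35 and mRpS30 long day replicate 2 was the highest of all 8 arrays, at 8.66 and 9.02, but short day replicate 3 was the lowest, at 8.33 and 8.79. The values of mRpL48 lay between 7.91 and 8.03 on all arrays, with no array standing out.

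**Figure D3:**
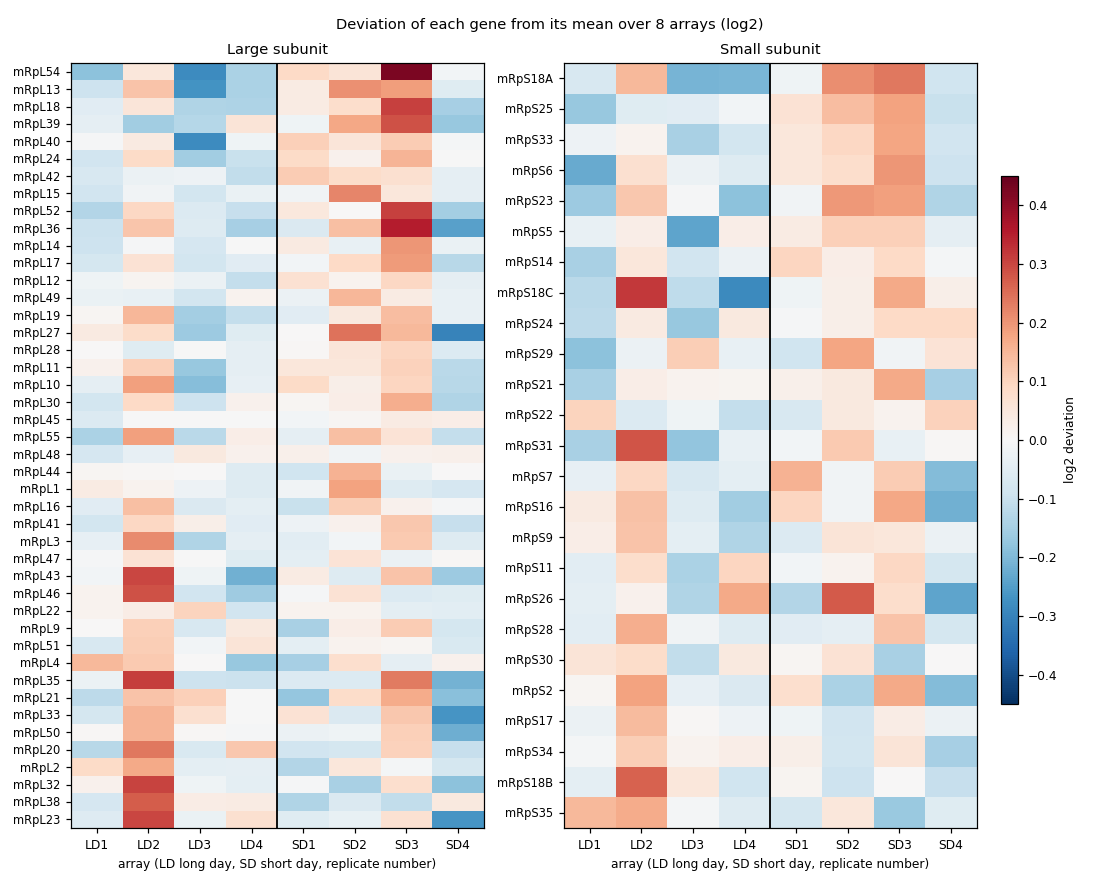
Deviation of each gene from its own mean over the 8 arrays (log2, as colour), large subunit left and small subunit right, with genes in rows ordered by their difference and arrays in columns (LD long day, SD short day, with replicate number). The columns LD2 and SD3 are mostly above 0 and the column SD4 mostly below 0.

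Members of the 2 subunits also followed each other gene by gene. With the mean of each photoperiod removed, the median pairwise correlation over the 8 arrays was 0.51 within the large subunit (946 pairs), 0.44 within the small subunit (300 pairs) and 0.49 between them (1100 pairs), and 0.035 over all pairs of genes of mean 4 or more. Within the respiratory chain list it was 0.43. It was 0.44 between large subunit and respiratory chain genes and 0.14 between large subunit and cytosolic ribosomal protein genes. With the photoperiod means kept, the medians were 0.43 within the large subunit, 0.35 within the small subunit and 0.42 between them. Within the respiratory chain list the median was then higher, at 0.56. Large subunit genes were then at 0.39 with respiratory chain and 0.042 with cytosolic ribosomal protein genes. These are descriptions over 8 arrays that share an RNA sample and a normalization in all of their genes, and the pairs are not independent.

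Both arrays in which the members stood highest had unusual marker content, as had short day replicate 2, where the large and small subunit were at 0.049 and 0.051. The 3 flight and jump muscle markers of mean 4 or more had a mean deviation of 2.60 in short day replicate 3 and between -0.82 and 0.19 on the other 7 arrays, and fln was at 2.69 or less and TpnC4 at the lowest value on those 7. The 8 neuronal markers were at -0.39 in replicate 2 of the long days, at -0.12 in replicate 3 of the short days and between -0.050 and 0.23 on the rest. The mean of the 6 glial markers was highest in long day replicate 2, at 0.24, and between -0.22 and 0.11 elsewhere. Of these genes only Gat and moody had their highest value there, with Gat at 10.68 against at most 10.17 elsewhere. The others were highest in long day replicate 4, and Gs2 alone lay below its own mean in long day replicate 2 (13.05 against 13.10). On average the 8 photoreceptor markers were lowest on the same 2 arrays as the members were high, at -0.13 in replicate 2 of the long days and -0.17 in replicate 3 of the short days, and between -0.045 and 0.20 on the others. In long day replicate 2 eys lay furthest below its own mean (10.45 against 11.05), and trpl alone lay above (12.85 against 12.63). The muscle markers were at -0.63 in long day replicate 2. The part of these markers in the level of the members was not tested. The mean of the 9 fat body markers separated the photoperiods, with 0.25 to 0.37 in long days and -0.56 to -0.15 in short days. In 7 of them the groups did not overlap, beside 7.34% of all genes, and these were called lower, against 1.69% of all genes in that direction. In apolpp (difference -0.060) and FASN1 (0.036) the groups overlapped. The list holds Yp2 and Yp3, which the study itself reported to differ with photoperiod, and it is therefore not an independent yardstick. The mitochondrial ribosomal proteins showed no such separation.

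**Figure D4:**
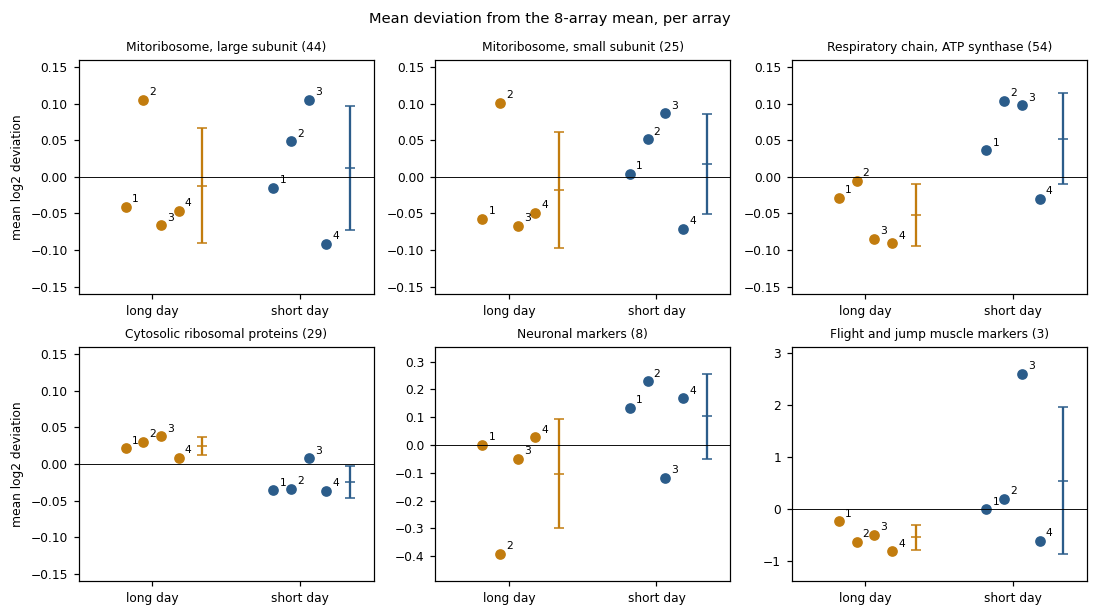
Mean log2 deviation from the 8-array average on each array (points, labelled with the replicate number) in long and short days, with mean and SD of 4 arrays, for both subunits of the mitochondrial ribosome and 4 other lists (genes of mean 4 or more, their number in parentheses). The upper 3 panels and that of the cytosolic ribosomal proteins share a scale, on which point 2 of the long days and point 3 of the short days are the highest of both mitochondrial subunits.

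Leaving out the arrays that stood apart changed few calls. Without long day replicate 2, mRpL24 was called upwards (difference 0.18, adjusted p = 0.451 in limma), against 2.59% of all genes. This homologue of a bacterial protein that starts the assembly of the large subunit was at 9.18, 9.35, 9.11 and 9.17 in long days and 9.35, 9.29, 9.42 and 9.27 in short days. The median differences were then 0.063 and 0.064 for the large and small subunit, beside 0.025 over the genes of mean 4 or more. Without short day replicate 3 no member was called, against 3.81%, and the medians were 0.0081 and 0.0060, beside 0.024. Without both, a choice made after the data were seen, mRpL24 and mRpL54 were called upwards (0.15 and 0.25, limma adjusted p = 0.399 and 0.382), against 3.01%, and the medians were 0.035 and 0.033, beside 0.029. Without short day replicate 4 the calls were mRpL42 and mRpS25, against 2.88%, with medians of 0.042 and 0.072, beside 0.030. Leaving out any other single array gave no call, against 2.59%, 2.29% and 3.92% of all genes without long day replicates 1, 3 and 4, and 2.29% and 2.60% without short day replicates 1 and 2. Without short day replicate 2 the medians were 0.0026 and 0.029 for the large and small subunit, beside 0.0053 over the genes of mean 4 or more. Nor did any member pass with a filter at a mean of 4 (7.12% of the genes kept) or 6 (7.79%), a second quantile normalization (3.68%), median centring (4.91%), a trend and robust variance model (1.2%), array weights (4.72%), a floor of 3 (3.36%) or averaged probe sets (3.52%).

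A second probe set was available for 2 members, and in both it was dimmer and lay lower. For mRpL47 the representative gave a difference of -0.0013 and the other -0.13, with intervals of -0.080 to 0.078 and -0.36 to 0.097. For mRpS11 the values were 0.0093 and -0.14, with intervals of -0.15 to 0.17 and -0.35 to 0.072. The intervals of each pair overlapped and included 0. The probe sets shared with another gene gave 0.15 ± 0.09 (mRpL53 with CG33155) and 0.068 ± 0.069 (mRpS10 with CG34316), and neither was called.

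The rest of the mitochondrial translation machinery was also without calls. Of 3 measured mitochondrial ribosomal proteins under other names, tko was at -0.11 ± 0.13, bonsai at -0.003 ± 0.103 and CRIF at -0.012 ± 0.086, and all 3 showed the high value of long day replicate 2, with a mean deviation of 0.227 there. None of the 8 measured translation factors was called, among them the elongation factors mEFTu1 (-0.03 ± 0.05) and mEFG1 (0.07 ± 0.04), which bring in the aminoacyl-tRNA and move the ribosome along. None of 14 mitochondrial tRNA synthetases was called, with differences from -0.32 (ProRS-m) to 0.34 (TyrRS-m) and a median of 0.012, nor any of 15 genes of mitochondrial DNA maintenance, transcription and RNA handling. Among the 15 genes TFAM, which packages mitochondrial DNA, was at -0.07 ± 0.07 and the RNA polymerase PolrMT at -0.02 ± 0.06. PolG1 and mtDNA-helicase, also of the 15, had means of 2.81 and 2.73, near the lowest value, where a change could hardly show. At an unadjusted p under 0.05 these 4 lists held 2 of 40 genes (PolG1 and mtDNA-helicase counted), TyrRS-m and bsf, beside 11.1% of all genes and 17.8% of those of mean 4 or more. At the threshold of 0.01 the share of all genes was 3.48%.

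The proteins that the mitochondrial ribosome works beside gave other values. Of 71 nuclear subunits of the respiratory chain and ATP synthase 3 were called, all higher in short days, beside 1.79% of all genes in that direction. The median difference was 0.093 over the 54 of mean 4 or more, and 56 of the 71 had a higher and 5 a lower mean in short days, the others being equal, beside 44 and 25 of the 69 mitochondrial ribosomal proteins. Of 34 cytosolic ribosomal protein genes 3 were called lower, beside 1.69% of all genes, and their median difference over the 29 of mean 4 or more was -0.037, beside 0.023. Over all 34 the within-group SD had a median of 0.04, beside 0.11 and 0.10 in the large and small mitochondrial subunits. The 34 include genes down to the lowest value of 2.15, which vary little, but 29 of them had a mean of 4 or more. Their highest mean was 15.28, where the arrays reached at most 15.52. The means of the mitochondrial members, at 7.01 to 11.75, lay near neither end. The part of the level in this spread was not tested. Of 13 genes of mitochondrial protein import none was called, and the 8 of mean 4 or more had a median of -0.034. The lists share all 8 arrays, and no difference between them was tested.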

How the data were processed

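The authors extracted total RNA with Trizol, prepared biotin-labelled cRNA and hybridised it to Affymetrix Drosophila Genome 2.0 arrays. The values deposited by the authors are log2 expression per probe set made with GCRMA (version not given in the sources used here), which corrects background by probe sequence, quantile-normalises the arrays and summarises probes. A change in total mRNA would therefore not be visible. Control probe sets (183 of 18952) were set aside and 18769 were fitted in R 4.3.3 by lmFit and eBayes of limma 3.58.1 (short day minus long day, two-sided, no block). Calls are unadjusted p under 0.01, the study's threshold, and adjusted p-values are over all probe sets. Genes came from the platform annotation, with 1 probe set per gene. No coordinates or sequences are given. No scan date was used here and no batch was tested, and the number of arrays limits the precision.

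Named by rule were all called members, the 3 largest positive and negative differences per subunit and the member nearest the threshold. Members and lists were chosen with earlier results of these data known. The steps were tested on simulated data. The alternatives comprised the replicate number as a block, a filter on means below 4 or 6, a second quantile normalization, median centring, a trend and robust variance model, unmoderated variances, array weights, a floor of 3, averaged probe sets and each array left out. A fit without long day replicate 2 and short day replicate 3 was added after the data were seen.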

Additional observations from a re-analysis of the deposited data

Results flagged for a closer look

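The mean deviation of the large subunit genes was 0.105 in long day replicate 2 and at most -0.041 on the other 3 long day arrays, a gap of 0.856 of the range of the group. For the small subunit it was 0.101 there and at most -0.049 on the others, a gap of 0.898 of the range. These were the groups of 4 with a sample far from the rest, 2 of the 34 examined, where chance gives about 1 in 20, and they are the same array seen in 2 related sets of genes. That array also had the lowest neuronal markers, at -0.39, and the part of these in the level of the members was not tested.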

How the results depend on the processing

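No member was called in most alternatives. With each array left out in turn the number of called members ranged from 0 to 1 in either subunit. Without long day replicate 2 and short day replicate 3 together it was 2 in the large subunit. With the replicate block it was 1 in the small subunit, mRpS30 (difference -0.037, adjusted p = 0.605 in limma), against 1.99% of all genes. At an unadjusted p under 0.05 the count of the 69 members, 1 with all arrays, was 5 with the block or with array weights. It was 4 without both arrays, 2 with median centring or averaged probe sets and 0 under a trended, robust variance prior. Of the genes of mean 4 or more 13.7% passed with the block, 20.7% with array weights and 16.2% without both arrays. Their share was 8.97% under the trended prior and 21.7% with median centring, and with averaged probe sets it lay between these. The deviations of same-numbered samples correlated at 0.0066, -0.23, -0.14 and 0.17. Only those of replicate 4 correlated best with their own number (0.17 against at most 0.091 with another). Such values cannot settle whether same-numbered samples were handled together. The sign of mRpS30 turned with array weights (0.00017), without short day replicate 3 (0.0060) and without both arrays (0.028), and the cause was not tested. With single arrays left out its difference ranged from -0.080 to 0.0060. The median differences stayed between 0.0026 and 0.063 in the large and between 0.0060 and 0.072 in the small subunit over the 19 alternatives, and moved by less than the spread between arrays. After median centring they were 0.0044 and 0.018. With 4 arrays per photoperiod 95% intervals typically reached 0.18 to either side of the difference in the large and 0.17 in the small subunit (medians), and differences well under these could not be resolved.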
